A study of Mus musculus with 9 samples.

Results

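The MHC class II antigen presentation genes were examined in the liver of mice fed a high-fat diet (HFD). The set was defined by the names of the pathway's genes, with no measured value in the rule, and held 7 genes: Cd74, H2-Aa, H2-Ab1, H2-Eb1, H2-DMa, H2-DMb1 and Ciita. All 7 were found among the 33211 genes of the deposited table, and all 7 passed the filter on low counts that left 14220 genes for testing. The RNA-seq libraries came from livers of C57BL/6 mice (the substrain C57BL6/J per the methods of the study) on the same kind of HFD, which had been stored either frozen (HFDfre, n = 5) or refrigerated (HFDfri, n = 4). Per the methods of the study, the mice were male, were 8 weeks old at the start and were fed for 7 weeks, and the diets were kept at -20 °C (HFDfre) or 4 °C (HFDfri). No group on another diet is part of the comparison, so both groups share the HFD. The labels do not say that each library came from a separate mouse, and the p-values therefore measure the spread between these samples.

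MHC class II molecules display peptides from proteins taken up by the cell to CD4+ T cells. The alpha and beta chains assemble with the invariant chain Cd74, which blocks the peptide groove and guides the complex to the endosome, and H2-DM then exchanges the last fragment of Cd74 for an antigenic peptide. In the liver, class II is carried mainly by dendritic cells, B cells and macrophages including Kupffer cells, and at lower levels by sinusoidal endothelial cells. The transactivator Ciita does not bind DNA itself but docks on factors held at the promoters of class II genes, where RFX binds an element named the X box and NF-Y binds a CCAAT element named the Y box. In bulk liver RNA, fewer cells of a type and less RNA per cell cannot be told apart.

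The promoters of class II genes are shown because they hold the elements on which Ciita's partners assemble, an arrangement that class I promoters are known to share in part. The RefSeq promoter table (GRCm38.p6) held 4 of the 7 genes. The 150 bases before the RefSeq start site are given 5′ to 3′ on the strand of the gene for the 3 of them in which both elements were found, at chr17:34287824-34287973 (minus strand) for H2-Aa, chr17:34305717-34305866 (plus strand) for H2-Eb1 and chr17:34153041-34153190 (plus strand) for H2-DMb1. The first run of capitals is the X motif, searched as CTNGNAACT, and the second is the Y motif, searched as TGATTGG.
H2-Aa: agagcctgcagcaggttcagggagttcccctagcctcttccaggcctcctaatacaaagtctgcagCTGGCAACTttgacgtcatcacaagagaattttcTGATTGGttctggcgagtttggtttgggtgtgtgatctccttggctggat
H2-Eb1: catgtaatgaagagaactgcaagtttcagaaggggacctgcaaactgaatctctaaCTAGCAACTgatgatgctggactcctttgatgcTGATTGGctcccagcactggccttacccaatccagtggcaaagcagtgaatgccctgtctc
H2-DMb1: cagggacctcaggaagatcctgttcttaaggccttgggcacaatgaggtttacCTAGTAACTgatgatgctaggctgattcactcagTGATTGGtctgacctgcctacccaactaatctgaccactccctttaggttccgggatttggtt

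The motifs lay close to the start site and kept their spacing in these 3 promoters. Counting the base before the start site as -1, the X motif began at -84 in H2-Aa, -94 in H2-Eb1 and -97 in H2-DMb1, and the Y motif began at -50, -61 and -63. The stretch between the motifs was 25 bases in H2-Aa, 24 in H2-Eb1 and 25 in H2-DMb1. Both strands of the whole promoter window of the table, which reaches further upstream and a short way past the start, were searched in all 32851 entries. The X letters occurred in 4.10% of them, the Y letters in 7.82% and both in 0.350%, which is 115 promoters. The letters were chosen after these promoters had been read, so their presence here is a description. The 2 entries of H2-DMa held neither string of letters, which says only that these letters are not in those windows. The related class II genes H2-Oa, H2-Ob, H2-DMb2 and H2-Eb2 held the Y letters, starting at -45, -59, -92 and -102, without the X letters.

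The libraries were deep and of similar size, with 60323908 to 68528457 counts in HFDfre and 58614917 to 69353439 in HFDfri. Levels are given as CPM, a count relative to the library total after TMM scaling. The tissue label was borne out by albumin (Alb), at 65841 ± 3204 CPM in HFDfre and 63995 ± 9701 CPM in HFDfri (SD). A ribosomal RNA-like locus, Gm26924, took 11.1%, 7.5%, 1.247%, 5.58% and 1.20% of the counts of HFDfre 1 to 5 and 0.931%, 0.466%, 5.21% and 1.95% of those of HFDfri 1 to 4. The groups were compared with edgeR's quasi-likelihood test, and a gene was called at a Benjamini-Hochberg adjusted p under 0.05 over the 14220 genes.

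The class II genes were lower on average in HFDfri than in HFDfre, but none passed the adjusted threshold. All 7 had a negative log2 fold change, with a median of -0.46, where 50.9% of all tested genes were negative and the median over all genes was -0.01. By edgeR's quasi-likelihood test 0 of the 7 were called, with 1.05% of all genes called. At an unadjusted p under 0.05 the count was 3 of 7, namely H2-Aa, H2-Eb1 and Cd74, all lower in HFDfri. Of all genes, 21.2% passed that level and 9.79% of all genes passed it with the lower level in HFDfri. DESeq2 called 1 of the 7, H2-Aa, where it called 8.41% of the genes it gave an adjusted p (Ciita had none). In 0 of the 7 class II genes were the groups fully apart. Of all genes, 7.69% showed no overlap between the groups, and 0 of 7 is near that share.

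**Figure D1:**
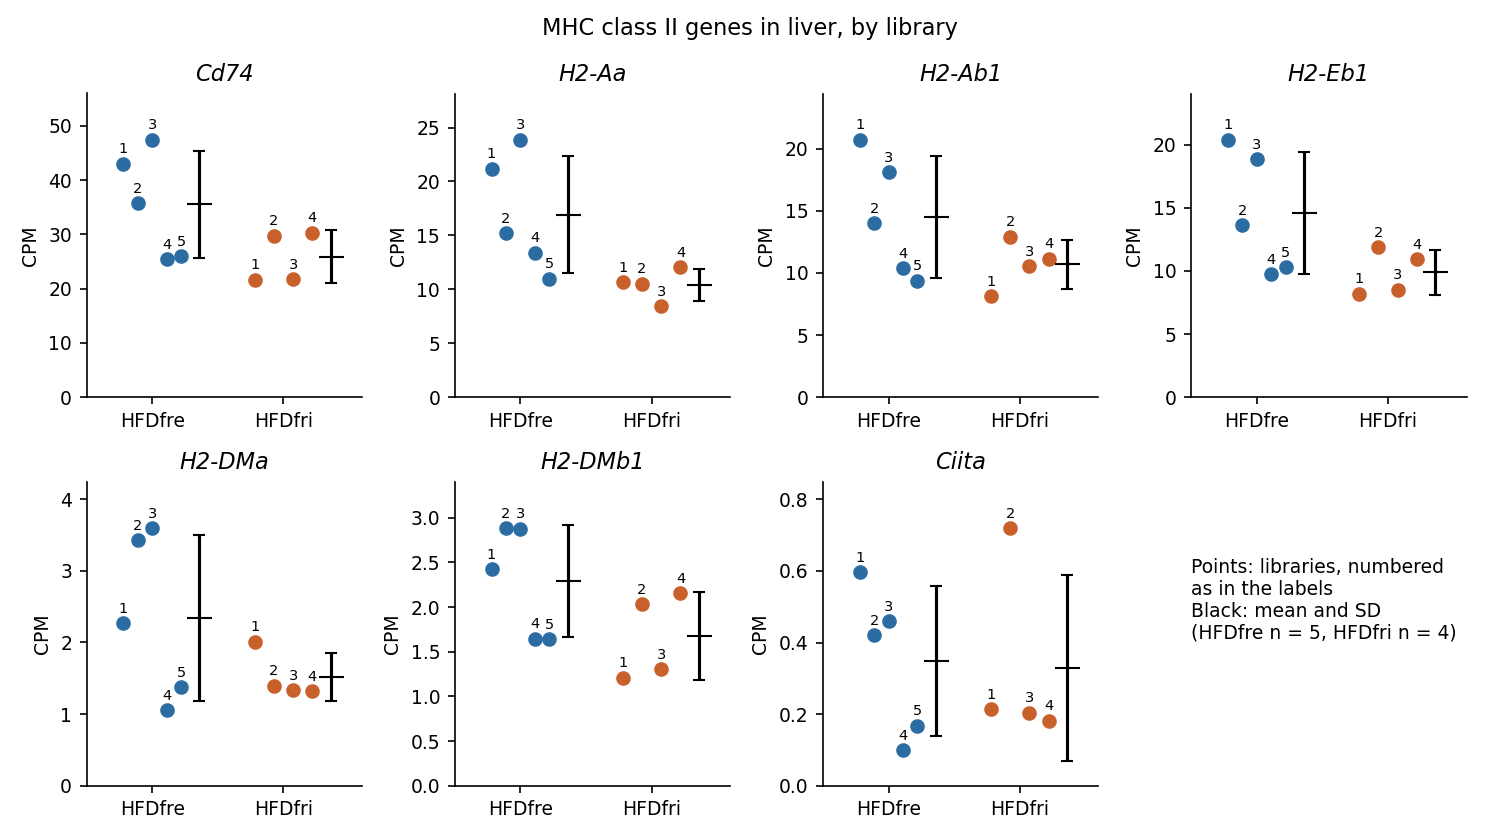
CPM of each class II gene (vertical axes, linear and starting at 0) in the HFDfre libraries (blue, n = 5) and the HFDfri libraries (orange, n = 4), with the library number beside each point and the mean ± SD in black. HFDfre 1, 2 and 3 lie above HFDfre 4 and 5 in all 7 panels, and the HFDfri points overlap with HFDfre 4 and 5.

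Cd74, the invariant chain, was the most abundant of the set. It lies on chromosome 18 at 60803848 to 60812652 (GRCm38, plus strand). Its level was 43.0, 35.8, 47.4, 25.5 and 26.0 CPM in HFDfre 1 to 5 and 21.7, 29.8, 21.7 and 30.4 CPM in HFDfri 1 to 4. The 3 highest libraries were HFDfre 1, 2 and 3, and the other 2 HFDfre libraries lay inside the range of HFDfri. The mean was 35.5 ± 9.88 CPM in HFDfre and 25.9 ± 4.84 CPM in HFDfri (SD). The log2 fold change, HFDfri minus HFDfre, was -0.46 ± 0.20 (SE), with a 95% interval from -0.89 to -0.03 and an edgeR adjusted p of 0.215.

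H2-Aa, which encodes the alpha chain of the I-A molecule, showed the largest difference of the set. It lies on chromosome 17 at 34282744 to 34287823 (GRCm38, minus strand), downstream of the promoter printed above. HFDfre 1 to 5 had 21.2, 15.2, 23.9, 13.4 and 11.0 CPM, and HFDfri 1 to 4 had 10.7, 10.5, 8.43 and 12.1 CPM. HFDfre 5 was the only HFDfre library below the highest HFDfri library, so the groups came close to separating. The mean was 16.9 ± 5.41 CPM in HFDfre and 10.4 ± 1.5 CPM in HFDfri (SD). With edgeR the log2 fold change was -0.70 ± 0.21 (SE, 95% interval -1.16 to -0.24) and the adjusted p 0.109, and with DESeq2 the same log2 fold change of -0.70 had an adjusted p of 0.0229. Over the 20 alternatives run the log2 fold change ran from -0.82 to -0.55 and the adjusted p from 0.0229 to 0.542, and DESeq2 was the only one under the threshold.

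H2-Ab1 encodes the beta chain that pairs with H2-Aa, and lies nearby at 34257689 to 34269419 of chromosome 17. Its level was 20.7, 14.0, 18.1, 10.4 and 9.36 CPM in HFDfre 1 to 5 and 8.12, 12.9, 10.5 and 11.2 CPM in HFDfri 1 to 4. HFDfre 4 and 5 were lower than 3 of the 4 HFDfri libraries, and the groups overlapped more than for H2-Aa. The means were 14.5 ± 4.88 CPM and 10.7 ± 1.99 CPM (SD), with a log2 fold change of -0.44 ± 0.23 (SE, 95% interval -0.94 to 0.06, edgeR adjusted p = 0.299).

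H2-Eb1, the beta chain of the I-E molecule, lies at 34305867 to 34316674 of chromosome 17. The I-E alpha chain is not made in mice of the C57BL/6 strain, whose Ea gene is defective, so that this beta chain has no partner of its own isotype. Its level was 20.4, 13.6, 18.8, 9.73 and 10.3 CPM in HFDfre 1 to 5 and 8.21, 11.9, 8.53 and 10.9 CPM in HFDfri 1 to 4. The order of the libraries was close to that of Cd74, with HFDfre 1, 2 and 3 on top and HFDfri 1 and 3 at the bottom. The log2 fold change was -0.56 ± 0.23 (SE, 95% interval -1.05 to -0.07), on means of 14.6 ± 4.86 and 9.88 ± 1.80 CPM (SD), with an edgeR adjusted p of 0.189.

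The H2-DM genes, which encode the peptide editor, were lower in abundance. H2-DMa, the alpha chain (chromosome 17, 34119541 to 34139101), stood at 2.27, 3.43, 3.59, 1.05 and 1.37 CPM in HFDfre 1 to 5 and at 2.01, 1.40, 1.33 and 1.32 CPM in HFDfri 1 to 4. HFDfri 1 was above the other 3 libraries of its group, and HFDfre 4 was the lowest of all 9. The log2 fold change was -0.63 ± 0.35 (SE, 95% interval -1.40 to 0.14, edgeR adjusted p = 0.335). In the annotation, 360 of its exon bases overlap with Brd2 on the opposite strand, and Brd2 was far more abundant at 51.2 CPM in HFDfre and 54.4 CPM in HFDfri. Whether the counting used strand is not given in the sources used here, so Brd2 reads cannot be told apart from H2-DMa reads over those bases.

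H2-DMb1, the beta chain of H2-DM (chromosome 17, 34153072 to 34160230 in GENCODE, whose start lies upstream of the RefSeq start, so that most of the window printed above is inside this gene model), had 2.43, 2.88, 2.88, 1.64 and 1.64 CPM in HFDfre 1 to 5 and 1.21, 2.03, 1.30 and 2.16 CPM in HFDfri 1 to 4. HFDfre 4 and 5 again sat between the HFDfri libraries. Its log2 fold change was -0.45 ± 0.27 (SE, 95% interval -1.03 to 0.13, edgeR adjusted p = 0.359). It is uncertain to the extent that 15.8% of its 75-base windows are shared with its neighbour H2-DMb2. With the counts of both genes summed, the log2 fold change was -0.50.

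Ciita, the transactivator of the family (chromosome 16, 10480059 to 10528418), was near the lower limit of what these libraries resolve. It had 31, 27, 30, 7 and 12 counts in HFDfre 1 to 5, or 0.597, 0.420, 0.459, 0.0983 and 0.168 CPM. HFDfri 1 to 4 had 12, 52, 15 and 11 counts, or 0.214, 0.719, 0.204 and 0.181 CPM. HFDfri 2 was the highest of all 9 libraries, and the other 3 HFDfri libraries lay just above HFDfre 4 and 5. The log2 fold change was -0.06 ± 0.62 (SE, 95% interval -1.41 to 1.29, edgeR adjusted p = 0.968), so that neither direction was resolved at this depth. HFDfri 2 decided the value: without it the log2 fold change was -0.79, and without HFDfre 1 it was 0.20. Part of the count is also open to a neighbour, since 329 exon bases overlap with Dexi on the opposite strand, which had 15.8 CPM in HFDfre and 14.9 CPM in HFDfri.

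**Figure D2:**
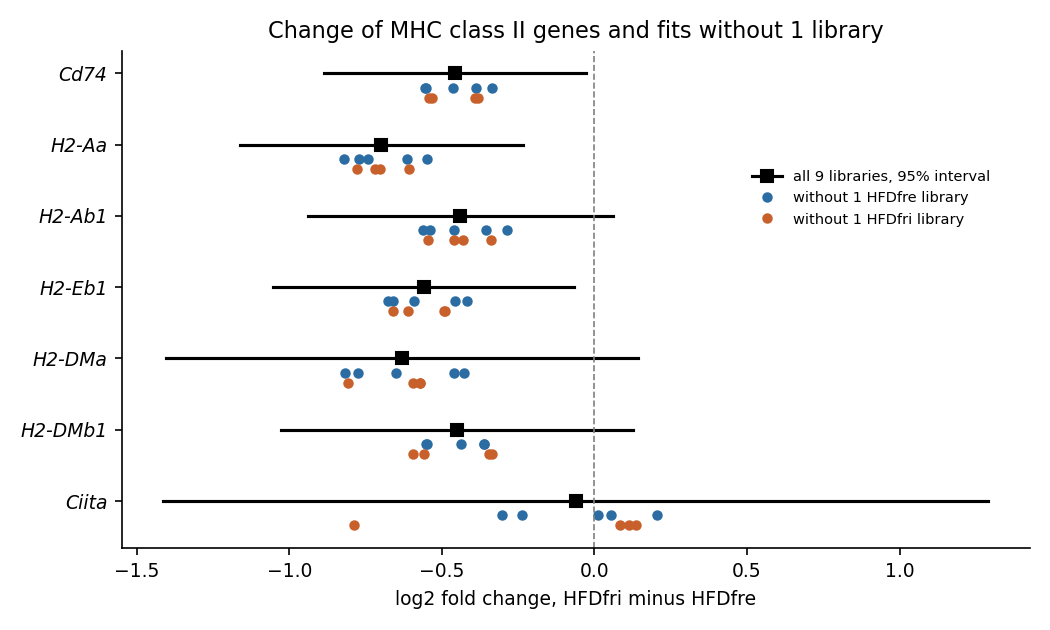
Log2 fold change (horizontal axis, HFDfri minus HFDfre) of each class II gene from all 9 libraries (black squares, lines for the 95% interval) and from fits without 1 HFDfre library (blue points) or without 1 HFDfri library (orange points). The points of 6 genes stay below 0, between -0.82 and -0.29, and those of Ciita run from -0.79 to 0.20.

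Leaving out any 1 library kept the log2 fold change negative for 6 of the 7 genes, the exception being Ciita. The ranges were -0.56 to -0.34 for Cd74, -0.82 to -0.55 for H2-Aa, -0.56 to -0.29 for H2-Ab1, -0.68 to -0.42 for H2-Eb1, -0.82 to -0.43 for H2-DMa and -0.59 to -0.33 for H2-DMb1. No class II gene was called by edgeR in any of these fits. The number of class II genes at an unadjusted edgeR p under 0.05 was 1 without HFDfre 1, HFDfre 3, HFDfri 1 or HFDfri 3. It was 2 without HFDfre 2, 3 without HFDfri 2 or HFDfri 4, 4 without HFDfre 5 and 5 without HFDfre 4. The share of all genes at that level in each of these fits was not computed. These counts therefore cannot be told apart from shifts that all genes share.

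Corrected for gene length, the invariant chain was highest, followed by the alpha and beta chains, the H2-DM chains and the transactivator. Per kilobase of annotated exon, averaged over all 9 libraries, Cd74 stood at 18.6 ± 5.44 CPM per kb (SD). The chains followed at 6.43 ± 2.25 for H2-Eb1, 4.99 ± 1.63 for H2-Ab1 and 3.70 ± 1.37 CPM per kb for H2-Aa. H2-DMb1 had 1.20 ± 0.371, H2-DMa 0.573 ± 0.275 and Ciita 0.0357 ± 0.0228 CPM per kb. H2-Eb1, H2-Ab1 and H2-Aa differed from their neighbours among these 3 by less than the SD over libraries, while the gaps below Cd74, H2-Aa, H2-DMb1 and H2-DMa were larger than it. That SD includes variation that these genes share, and within libraries their order was the same in all 9. H2-Eb1 was 1.07 to 1.46 times H2-Ab1, and H2-Aa was 0.54 to 0.89 times H2-Ab1. Likewise, H2-DMb1 was 1.23 to 3.36 times H2-DMa in all 9. The lengths join all annotated exons of a gene (3798 bases for H2-Aa, 2568 for H2-Ab1, 1944 for H2-Eb1), so the levels of genes with long alternative exons are understated.

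No difference between the groups was detected in the proportions of the genes to each other. Per length, H2-Aa stood at 0.797 ± 0.0863 of H2-Ab1 in HFDfre and 0.678 ± 0.165 in HFDfri (SD), a log2 difference of -0.26 (exact permutation test, two-sided, p = 0.183, adjusted over 4 ratios 0.381). H2-Eb1 stood at 1.33 ± 0.0849 and 1.23 ± 0.118 times H2-Ab1 (exact permutation p = 0.190, adjusted 0.381), and Cd74 at 3.82 ± 0.399 and 3.73 ± 0.476 times H2-Ab1 (exact permutation p = 0.746, adjusted 0.921). H2-DMb1 stood at 2.24 ± 0.631 and 2.40 ± 0.961 times H2-DMa (exact permutation p = 0.921, adjusted 0.921). None of the 4 ratios passed the test, and the smallest p that 5 against 4 libraries allow is 0.00794. The ratios were chosen after the levels had been seen.

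Within HFDfre the libraries fell into a higher and a lower set, with a range wider than the difference between the group means. HFDfre 1, 2 and 3 were above HFDfre 4 and 5 for 7 of 7 genes and above every other library for 6 of 7, the exception being Ciita. The 7 genes summed to 110.6, 85.3, 115.2, 61.8 and 59.8 CPM in HFDfre 1 to 5 and to 52.1, 69.3, 52.1 and 68.2 CPM in HFDfri 1 to 4. The highest library was 2.21 times the lowest. The share of the ribosomal RNA-like locus was highest of all 9 libraries in HFDfre 1 (11.1%) and HFDfre 2 (7.5%). It was 1.247% in HFDfre 3, the library with the highest class II sum. With this share as a covariate, 1 class II gene was at an unadjusted edgeR p under 0.05, in place of 3. How many of all genes passed that level in this fit was not computed. The log2 fold changes in it were -0.44 for Cd74, -0.68 for H2-Aa, -0.30 for H2-Ab1 and -0.48 for H2-Eb1. They were -0.65 for H2-DMa, -0.44 for H2-DMb1 and 0.10 for Ciita. The part of this locus in the class II levels was not tested further.

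Markers of white blood cells had the same high libraries. The list held Ptprc (CD45), Laptm5, Coro1a, Cd53, Cd52 and Cd37, which are carried by most leukocytes, and none of the 6 was at 0. They summed to 24.9, 26.2, 27.0, 14.7 and 14.4 CPM in HFDfre 1 to 5 and to 16.2, 16.6, 12.9 and 17.0 CPM in HFDfri 1 to 4. Of the 6 genes 5 were lower in HFDfri, none was called, and the median log2 fold change was -0.44. The smallest p-values were those of Cd52, a surface glycoprotein of lymphocytes (log2 fold change -0.92, edgeR adjusted p = 0.0988), and Coro1a, an actin-binding protein of leukocytes (-0.70, adjusted p = 0.181).

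**Figure D3:**
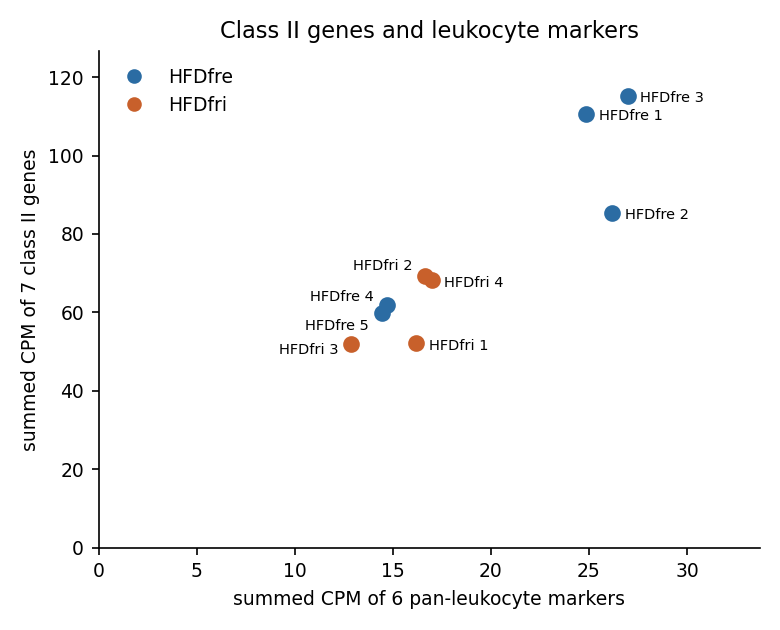
Summed CPM of the 7 class II genes (vertical axis) against summed CPM of 6 pan-leukocyte markers (horizontal axis) in each library, both axes linear and starting at 0. HFDfre 1, 2 and 3 stand apart at 85.3 to 115.2 CPM of class II genes, and the other 6 libraries of both groups lie together at 52.1 to 69.3 CPM.

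The class II sum divided by the leukocyte marker sum was 4.45, 3.26, 4.27, 4.21 and 4.14 in HFDfre 1 to 5 and 3.22, 4.16, 4.04 and 4.01 in HFDfri 1 to 4. The means were 4.07 ± 0.466 and 3.86 ± 0.433 (SD), and the highest ratio was 1.38 times the lowest. Against the markers of single cell types, the highest ratio was 1.55 times the lowest for monocytes and macrophages, 1.62 times for Kupffer cells, 1.98 times for sinusoidal endothelial cells, 2.01 times for dendritic cells and 3.08 times for B cells. The last is wider than the range of the class II sum itself, and HFDfre 4, low in class II genes, had the highest B cell marker sum (13.1 CPM). The leukocyte marker sum itself spanned a factor of 2.09, against 1.43 for dendritic and 1.497 for sinusoidal endothelial cells. A sum that varies little leaves the ratio near the range of the class II sum. In HFDfre, Bst2 averaged 112.9 CPM of a mean dendritic cell sum of 121.4 CPM. Ighm averaged 6.96 CPM of a mean B cell sum of 9.82 CPM there. These ratios therefore do not rank the cell types. The part of leukocyte content in the class II levels was not tested.

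The marker lists of single cell types were lower in HFDfri for the most part, with no gene called in any. All 11 tested dendritic cell markers were lower (median log2 fold change -0.47), and the list summed to 109.9 to 126.9 CPM in HFDfre and 88.7 to 111.7 CPM in HFDfri. Most of that sum was Bst2, at 112.9 ± 7.47 and 95.1 ± 11.7 CPM (SD), which many cell types carry, while the integrin Itgax (CD11c) stood at 0.588 ± 0.264 and 0.221 ± 0.104 CPM (log2 fold change -1.41, edgeR adjusted p = 0.173). All 8 tested B cell markers were lower (median -0.86), and they summed to 5.04 to 13.1 CPM in HFDfre and 3.58 to 7.83 CPM in HFDfri. Of the Kupffer cell markers 8 of 10 were lower (median -0.25, summed 153.2 to 271.0 CPM in HFDfre and 155.7 to 200.8 CPM in HFDfri), and of the monocyte and macrophage markers 9 of 10 (median -0.29, 33.2 to 63.4 CPM and 34.9 to 49.2 CPM). None of the markers was at 0 in all 9 libraries, and the part of any of these cell types in the class II levels was not tested.

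**Figure D4:**
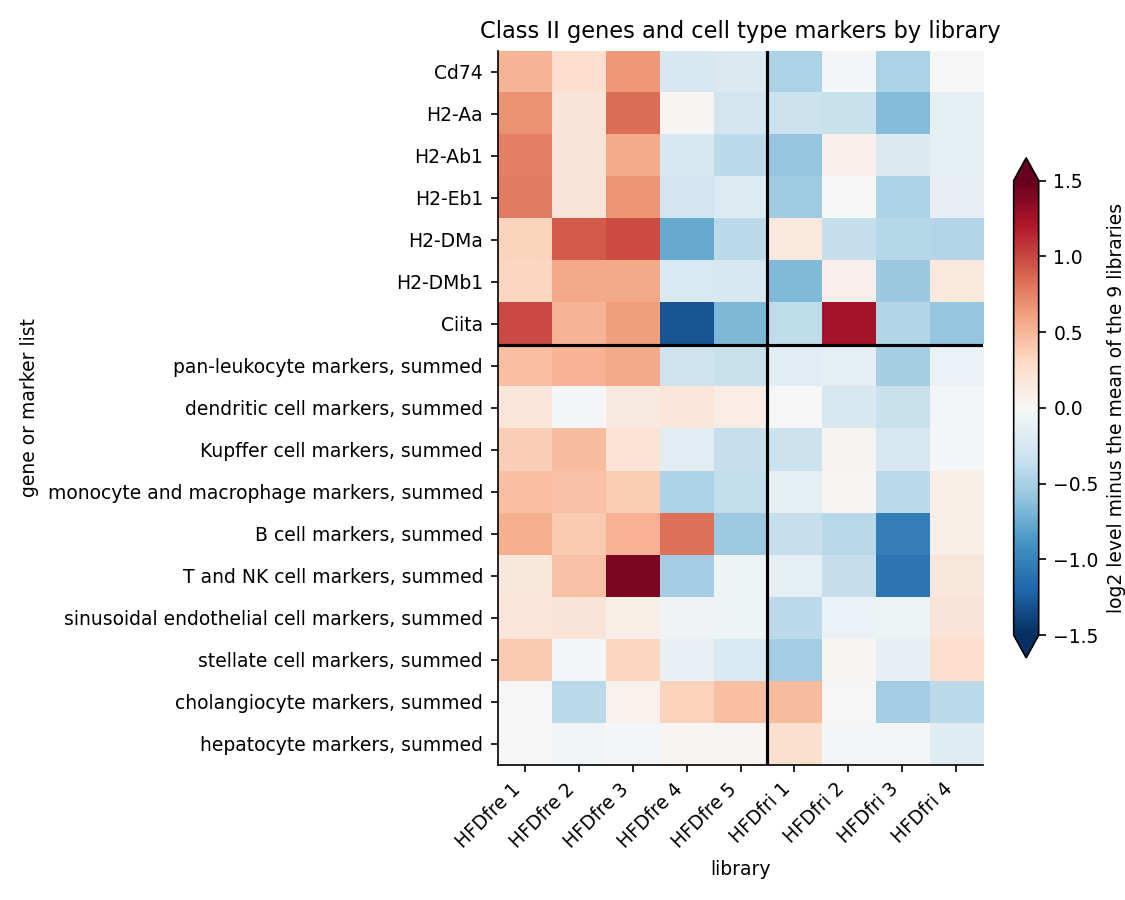
Log2 level of each class II gene and summed marker list (rows) in each library (columns), minus the mean of the 9 libraries; red is above and blue below that mean, and the scale is capped at 1.5 in each direction. HFDfre 1, 2 and 3 are red for the class II genes and for pan-leukocyte, Kupffer cell, and monocyte and macrophage markers, while hepatocyte and dendritic cell markers stay nearer to 0.

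The non-immune lists had medians nearer to 0, but single genes in them differed. At an unadjusted edgeR p under 0.05, 3 stellate and 2 sinusoidal endothelial cell markers were lower in HFDfri. At that level 1 cholangiocyte marker was higher, and 3 hepatocyte markers were higher and 1 lower. The Kupffer cell list and the monocyte and macrophage list had 0 such genes, and 21.2% of all genes passed that level. Of the sinusoidal endothelial cell markers 7 of 10 were lower in HFDfri (median log2 fold change -0.13), of the stellate cell markers 6 of 10 (-0.12), of the cholangiocyte markers 4 of 6 (-0.14) and of the hepatocyte markers 4 of 8 (median 0.21). Within HFDfre, libraries 1, 2 and 3 were also above 4 and 5 in the sinusoidal endothelial sum (146.6, 146.9 and 136.9 against 124.2 and 123.3 CPM). The stellate cell sum split the same way (199.0, 150.1 and 189.3 against 141.2 and 129.7 CPM). HFDfri 4 stood at 147.3 and 183.2 CPM in the same sums. The cholangiocyte and hepatocyte sums were lower in HFDfre 1, 2 and 3 than in HFDfre 4 and 5. T and NK cell markers, an immune list, were lower in 6 of 7 (median -0.78). Their sums were only 1.42 to 5.38 CPM in HFDfre and 0.95 to 2.29 CPM in HFDfri.

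The remaining class II genes of the H2 region were barely detected. H2-Ob, the beta chain of the H2-DM inhibitor H2-O, had 0.366 ± 0.160 CPM in HFDfre and 0.203 ± 0.138 CPM in HFDfri (SD, log2 fold change -0.84 ± 0.56 SE, edgeR adjusted p = 0.422). H2-DMb2, the second H2-DM beta chain, had 0.529 ± 0.253 and 0.316 ± 0.175 CPM (-0.75 ± 0.49 SE, adjusted p = 0.416). H2-Oa and H2-Eb2 were below the filter, and together the 4 genes summed to at most 1.62 CPM in any library.

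Genes that prepare peptides and carry class II through the endosome lay close to 0 on balance. Of the 12 tested, 9 were lower in HFDfri and 0 were called by edgeR (2 at an unadjusted p under 0.05, both lower), and the median log2 fold change was -0.04. Ctsb, the lysosomal protease cathepsin B, had 428.5 ± 13.8 CPM in HFDfre and 363.4 ± 19.9 CPM in HFDfri (SD) without overlap of the groups (log2 fold change -0.24 ± 0.08 SE, edgeR adjusted p = 0.140). Ifi30, the thiol reductase GILT, had 11.6 ± 2.61 and 8.35 ± 2.28 CPM (-0.47 ± 0.21 SE, adjusted p = 0.219).

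The general factors that assemble on the X and Y boxes were listed together with the coactivators Crebbp, Ep300 and Kat2b. The factors themselves pointed in both directions. Rfxap, Rfxank, Nfya and Creb1 were higher in HFDfri (log2 fold change 0.21, 0.03, 0.25 and 0.16). Rfx5, Nfyb and Nfyc were lower (-0.16, -0.21 and -0.04). The coactivators were all higher in HFDfri (log2 fold change 0.37, 0.21 and 0.20). Of the 10 genes tested 7 were higher in HFDfri and 3 lower, 0 were called by edgeR and 0 passed an unadjusted p of 0.05, and the median log2 fold change was 0.18. The NF-Y subunits with the smallest p-values pointed in opposite directions: the log2 fold change was 0.25 for Nfya (edgeR adjusted p = 0.259) and -0.21 for Nfyb (adjusted p = 0.318).

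Interferon-gamma is the classical inducer of Ciita, and the genes of its pathway and its targets moved in both directions. Of the 17 genes tested 3 were called (1.05% of all genes were), 2 lower and 1 higher in HFDfri, and the median over the list was -0.22 on the log2 scale. Gbp3, a guanylate-binding GTPase, fell from 9.48 ± 2.18 CPM in HFDfre to 4.31 ± 1.04 CPM in HFDfri (SD, log2 fold change -1.14 ± 0.20 SE, edgeR adjusted p = 0.0322). The chemokine Cxcl10 fell from 4.55 ± 0.782 to 2.46 ± 0.449 CPM (-0.89 ± 0.18 SE, adjusted p = 0.0464). Jak1, the kinase shared by the interferon receptors, rose from 50.05 ± 2.70 to 64.4 ± 3.10 CPM (0.36 ± 0.08 SE, adjusted p = 0.0496). The 2 groups did not overlap for any of these 3, which had been picked as called, and 7.69% of all genes showed no overlap. Ifng itself was below the filter, at no more than 0.187 CPM in any library. Each library was also left out in turn. The number called was 0 without HFDfre 1, HFDfre 2, HFDfre 3, HFDfre 5, HFDfri 3 or HFDfri 4 and 1 without HFDfre 4. It was 2 without HFDfri 2 and 4 without HFDfri 1, a fit in which 7.65% of all genes were called. For the other fits the share of all genes called was not computed. Their counts therefore cannot be told apart from shifts that all genes share. Without 1 library the log2 fold change ran from -1.32 to -1.01 for Gbp3, from -0.98 to -0.79 for Cxcl10 and from 0.34 to 0.39 for Jak1, so the direction held in all 9 fits of each gene.

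MHC class I presentation, the parallel pathway for peptides made inside the cell, had 12 of 17 genes lower in HFDfri, 0 called by edgeR, and 6 lower and 2 higher at an unadjusted p under 0.05. The median of the list was -0.22 on the log2 scale. B2m, the shared light chain, had 2457 ± 433 CPM in HFDfre and 1698 ± 278 CPM in HFDfri (SD, log2 fold change -0.53 ± 0.15 SE, edgeR adjusted p = 0.101). Canx, the chaperone calnexin, had 147.4 ± 13.7 and 196.9 ± 15.8 CPM (0.42 ± 0.10 SE, adjusted p = 0.0589). DESeq2 called 6 of the 17, against 8.41% of all genes with an adjusted p. Without HFDfri 1, edgeR called 6 of the 17 and 0 of the 7 class II genes, and 7.65% of all genes.

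Of the molecules that act beside class II at the contact with T cells, 4 of 7 tested were higher and 3 lower in HFDfri, 0 called by edgeR, 1 in each direction at an unadjusted p under 0.05 and a median log2 fold change of 0.07. Cd4, the co-receptor for class II, had 0.855 ± 0.161 CPM in HFDfre and 1.55 ± 0.355 CPM in HFDfri (SD, log2 fold change 0.86 ± 0.25 SE, edgeR adjusted p = 0.102). Cd274 (PD-L1), an inhibitory ligand, had 1.65 ± 0.503 and 1.01 ± 0.381 CPM (-0.71 ± 0.32 SE, adjusted p = 0.226).

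**Figure D5:**
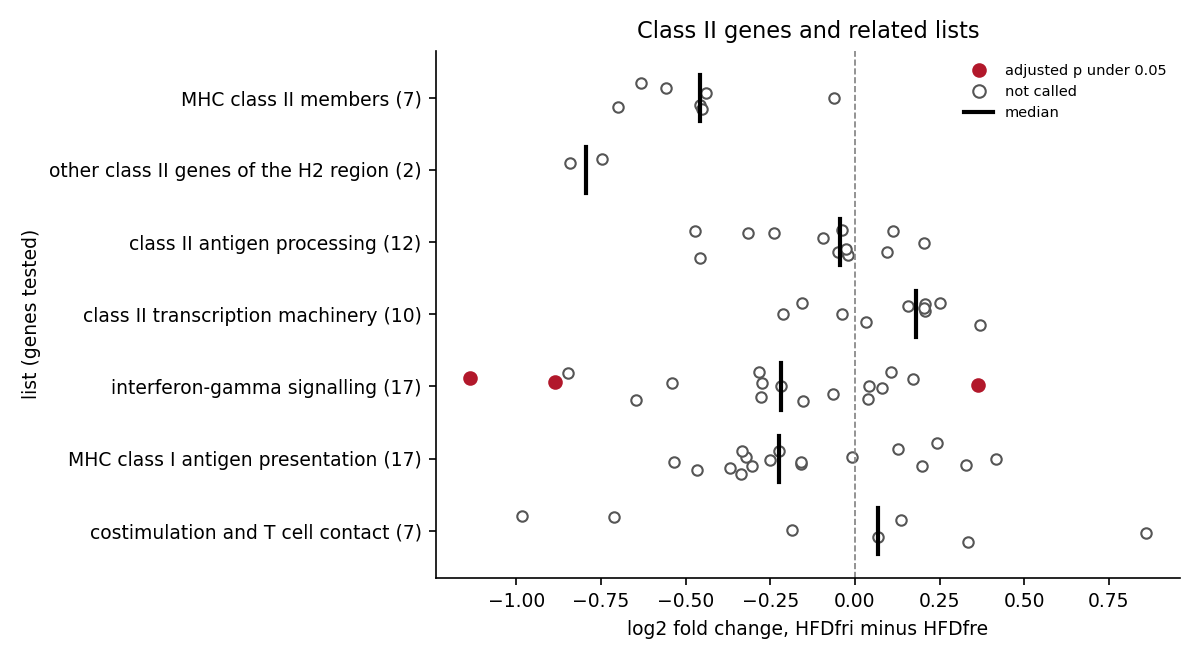
Log2 fold change (horizontal axis, HFDfri minus HFDfre) of every tested gene of the class II set and of 6 related lists (rows, number of tested genes in parentheses); filled red points are called at an edgeR adjusted p under 0.05, and the black bar is the median of the list. All 7 class II genes lie below 0 around a median of -0.46, and the 3 called genes are in the interferon-gamma list.

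The class II genes varied together across the libraries, though not equally closely. Over the 9 libraries the Pearson correlation of log2 CPM between pairs of them ran from 0.45 (H2-Aa with Ciita) to 0.98 (Cd74 with H2-Eb1). These values are a description, since the points share a library and its cell content. The correlation of each gene with the mean scaled profile of the 7 was highest for Cd74 (0.98) and H2-Eb1 (0.97) and lowest for H2-DMa (0.79) and Ciita (0.76). Each gene is itself part of that mean, which raises its correlation.

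Among the 6 genes outside the set whose profile was most like that mean were Sp100, a nuclear body protein (r = 0.969), Myc, a transcription factor of growth (0.957), Axl, a receptor tyrosine kinase (0.957), Ly6a, the surface protein Sca-1 (0.941), and Nek8, a kinase (0.936). Among the 10119 genes compared the 5th to 95th percentile of r was -0.690 to 0.653, and 15 genes were above 0.9. Myc stood at 7.47 ± 5.04 CPM in HFDfre and 2.09 ± 0.652 CPM in HFDfri (SD), with a log2 fold change of -1.83 ± 0.49 (SE, edgeR adjusted p = 0.0850). Ly6a stood at 5.65 ± 2.50 and 2.39 ± 0.470 CPM (-1.24 ± 0.32 SE, adjusted p = 0.0806). Neither passed the threshold. Both had the wide spread within HFDfre that the class II genes showed, a pattern that their choice by likeness to the class II mean favours. Ranked by Spearman's correlation in place of Pearson's, 2 of the 6 genes were the same.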

How the data were processed

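Liver RNA-seq of 5 HFDfre and 4 HFDfri samples was used, with columns matched to samples through the codes in their titles. The authors deposited estimated counts per gene, as whole numbers with no scaling between libraries; the submitters' processing notes name HISAT2, StringTie and mm10, and the annotation, versions and use of strand are not given in the sources used here. The labels name NEBNext Ultra as the library kit, whereas the methods of the study name KAPA RNA HyperPrep. Multiples of 4 are over-represented among low values (4 in 3990 gene and library pairs, 3 in 2172 and 5 in 1840), the cause of which was not tested.

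Of 33211 genes, 19775 had a count and 14220 passed filterByExpr. edgeR 4.0.16 in R 4.3.3 was run with TMM normalization, the quasi-likelihood test, no covariate and Benjamini-Hochberg adjustment over all tested genes; the values were rounded first, which left them as they were. SE is the size of the log2 fold change divided by the square root of F. Log2 CPM used a prior count of 2. Ratios were compared by exact permutation of samples. Coordinates and exon lengths are from GENCODE (GRCm38). The scripts were tested on simulated data.

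The class II genes and all lists were chosen with earlier results of these data known. The genes named are every class II gene, the called genes of each list or else the 2 with the smallest p, the 6 genes most like the class II mean averaging 1 log2 CPM or more, Gm26924 and Alb, with 1 of those 6 not reported here; other genes named were chosen after their values were seen. Of each marker list of a single cell type, only examples are named. Alternatives were DESeq2 1.42.0, limma-voom (limma 3.58.1), DESeq2 size factors, library totals, no filter, at least 10 counts in every library, robust dispersion, a replicate block, a covariate for the share of Gm26924, only libraries under 3% of it, and each library left out; counts divided by 4 and, for the lists, the settings on Gm26924 and on left-out libraries were added after the data were seen.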

Additional observations from a re-analysis of the deposited data

Results flagged for a closer look

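In 3 cases 1 HFDfri library stood far from the other 3, measured as its gap to the nearest library divided by the range of the group. For Ciita this share was 0.886, with HFDfri 2 at -0.42 log2 CPM and the others between -2.24 and -2.03. For H2-DMa it was 0.861, with HFDfri 1 at 1.03 log2 CPM and the others between 0.43 and 0.51. For the summed genes of interferon-gamma signalling it was 0.8294, with HFDfri 1 at 9.98 log2 CPM and the others between 9.43 and 9.52. That sum leans on 1 gene, Iigp1, which averaged 428.2 CPM of a mean sum of 791.8 CPM in HFDfri. Iigp1 ran from 350.1 to 627.6 CPM over the HFDfri libraries, so the sum does not describe the list as a whole. The library that stood apart was thus not the same for Ciita as for H2-DMa. Chance gives about 1 such case in 20, or 2.8 in the 56 sets of values searched, against the 3 found.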

How the results depend on the processing

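The log2 fold changes of Cd74, H2-Aa, H2-Ab1, H2-Eb1, H2-DMa and H2-DMb1 were negative under every alternative run. Ciita turned positive with limma-voom (0.064), library totals (0.067), the covariate for Gm26924 (0.10) and the libraries under 3% of it (0.25), and ran from -0.79 to 0.20 without 1 library; it was not in the fits with at least 10 counts in every library or with counts divided by 4, and DESeq2 gave it no adjusted p. The number of class II genes called was 0 by edgeR and limma-voom and 1 by DESeq2. The number at an unadjusted p under 0.05, 3 by edgeR, was 1 with limma-voom, 1 with the covariate for Gm26924, 0 in the libraries under 3% of it (fewer samples) and 1 to 5 without 1 library. DESeq2 called 1 gene of antigen processing, 5 of interferon-gamma signalling, 6 of class I presentation and 1 of costimulation, where edgeR called 0, 3, 0 and 0; for interferon-gamma signalling the count was 1 with library totals, 1 without the filter, 0 in the libraries under 3% of Gm26924 and 0 to 4 without 1 library. Without 1 library the count was 0 to 1 for antigen processing and 0 to 6 for class I presentation. Of the 6 genes most like the class II mean, 2 stayed under Spearman's correlation. Apart from fewer samples, the cause of these shifts was not tested. Among the alternatives, the share of all genes called is given only for DESeq2 and for the fit without HFDfri 1. The other counts have no such share beside them.

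With a replicate block, 0 class II genes and 0 interferon-gamma genes were called. The replicate numbers do not pair the samples: same-numbered libraries deviated from their group means with correlations of 0.0270, 0.0813, -0.136 and 0.0339.

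Depth limits Ciita, with 7 to 52 counts, most.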
